A study of Mus musculus with 25 samples.

Results

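Nrxn2, Nrxn3, Nlgn1, Nlgn2, Nlgn3, Lrrtm1, Lrrtm2, Igsf8 and Cntnap1 are 9 genes of synaptic and axonal adhesion among the 24411 genes of the deposited tables. They were taken by name, and all 9 were found in each of the 3 tables. RNA of hippocampal neuronal nuclei, sorted for the neuronal nuclear antigen NeuN, had been sequenced in 25 libraries from male mice of the C57BL/6 strain. In the aging experiment, 3 young wild-type libraries (3 months) stood against 2 aged ones (18 months). In the overexpression experiment, 5 control libraries from young mice that received a lentivirus for GFP stood against 7 labelled Ftl1 OE, from young mice that received the same type of virus for Ftl1. Both viruses carried the synapsin-1 promoter, which limits expression to neurons, and were placed in the CA1 region and the dentate gyrus of both hemispheres. In the knockdown experiment, 4 control libraries from aged mice with a short hairpin against luciferase (sh-Luc) stood against 4 labelled Ftl1 KD, from aged mice with a hairpin against Ftl1. The paper's methods also name adeno-associated virus for injections, and the labels give no age in months for these 2 experiments, whose young and aged mice had the ages of the aging experiment by the paper's account.

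Neurexins are presynaptic membrane proteins that reach across the synaptic cleft. Neuroligins and the leucine-rich repeat proteins of the LRRTM family bind them from the postsynaptic side, and the choice of promoter and exons in a neurexin gene sets which partner its protein can bind. Neuroligin 1 is known mainly from excitatory synapses, neuroligin 2 from inhibitory ones and neuroligin 3 from both. In the hippocampus, these contacts are known for setting how synapses form and how many receptors they hold. Igsf8 encodes an immunoglobulin protein that binds tetraspanins and has been described as a neuronal receptor at hippocampal synapses, and Cntnap1 encodes Caspr, a relative of the neurexins that holds myelin to the axon beside the nodes of Ranvier.

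Each value is a normalized count: the reads of a gene scaled by 1 factor per library. Aging libraries held 7969282 to 9537872 reads, overexpression libraries 9943996 to 17034325 and knockdown libraries only 48902 to 358560. The 3 tables were normalized separately, so values are compared only within one of them. All 7 neuronal markers looked at (among them Syt1, the most abundant in the aging and knockdown libraries) had reads in every library. Markers of other cells were present too: the summed oligodendrocyte markers reached 3116 to 6872 in the aging libraries, against 27719.5 to 36836 for the neuronal ones. In the overexpression libraries they reached 22969 to 48150.5 and the summed astrocyte markers 12330.5 to 60685, beside 42137 to 68422 for the neuronal ones. The astrocyte sum passed the neuronal one in labelled OE replicate 6. These sums depend on the genes listed and are not scaled by gene length, so they do not give the share of each cell type.

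Ftl1, which encodes the light chain of ferritin, did not follow the labels. Its normalized count in the control (GFP) libraries was 7315 in replicate 1, 4580.4 in replicate 2, 28309.5 in replicate 3, 7415 in replicate 4 and 9953 in replicate 5, against 4737 to 7663 with a median of 5171 in the 7 libraries labelled Ftl1 OE. The labelled OE libraries lay at the low end of the controls and overlapped them (exact two-sided permutation p = 0.0997 over 792 splits). In the knockdown experiment, Ftl1 read 49.1, 45.6, 56.2 and 24.2 in control replicates 1, 2, 3 and 5 and 117, 106, 109 and 139.6 in labelled KD replicates 1, 3, 4 and 5. Every library labelled KD lay above every control, and Ftl1 was called higher there (log2 fold change 1.47 ± 0.25 (SE), limma adjusted p = 2.2e-04). These values do not settle why. Directions below are therefore those of the libraries as labelled, not of a measured gain or loss of Ftl1 RNA.

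Aging was examined for what changes in hippocampal neurons between young and aged mice. Nlgn2, Igsf8, Nrxn2 and Cntnap1 had higher normalized counts in both aged libraries than in any of the 3 young ones, Nlgn1 and Lrrtm2 lower ones, and Nrxn3, Nlgn3 and Lrrtm1 overlapped. With limma, 0 of the 9 passed an adjusted p of 0.05, and neither did any of the 13712 genes tested (0%).

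**Figure D1:**
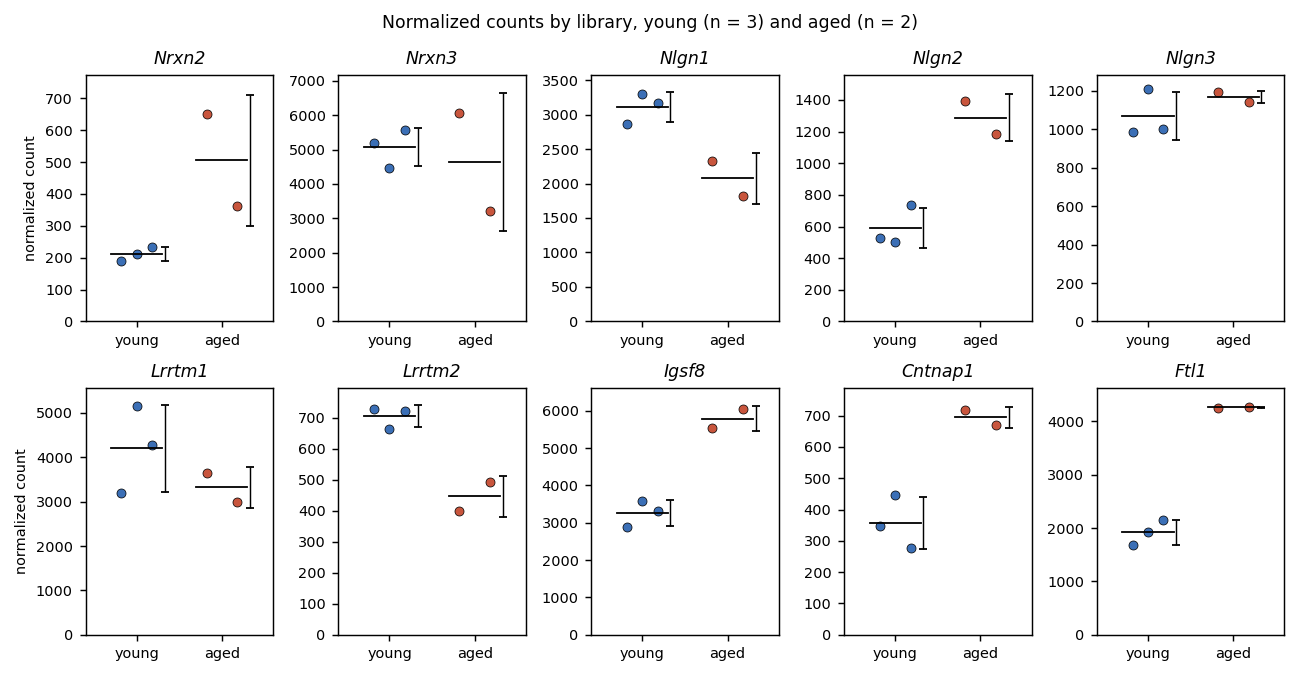
Normalized counts of the 9 genes and of Ftl1 in each young (blue, n = 3) and aged (red, n = 2) library, with the mean as a line and 1 SD as a bar. Both aged libraries lie above all young ones for Nrxn2, Nlgn2, Igsf8 and Cntnap1 and below them for Nlgn1 and Lrrtm2.

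Nlgn2, the neuroligin of inhibitory synapses, read 529.9, 505 and 734 in young replicates 1, 2 and 3 and 1394 and 1182 in aged replicates 2 and 3. The aged libraries were both far above the young ones, and their mean of 1288 ± 149 (SD, n = 2) was 2.18 times the young mean of 589.5 ± 126 (SD, n = 3). Its log2 fold change was 1.14 ± 0.30 (SE), and its limma adjusted p was 0.441. Igsf8 read 2894, 3587 and 3315 in the young libraries, against 5546 and 6035 in the aged ones, which formed a tight pair above all young libraries. Its log2 fold change was 0.83 ± 0.26 (SE, limma adjusted p = 0.502). DESeq2, run on the recovered reads of the same genes, called Nlgn2 (1.13, adjusted p = 0.0330) and Igsf8 (0.83, adjusted p = 0.0157) higher with age, where it called 138 of all 13712 genes (1.01%). The edgeR test called 0 genes, with an adjusted p of 0.570 for Igsf8. Over all alternatives, the adjusted p ran from 0.0330 to 0.980 for Nlgn2 and from 0.0157 to 0.980 for Igsf8.

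Nrxn2, a presynaptic neurexin, read 189.8, 212 and 234 in the young libraries, against 651 and 361 in the aged ones. Both aged values were higher, but they lay further from each other than the young values did, and the log2 fold change of 1.195 ± 0.40 (SE) came to 1.62 without aged replicate 3 and to 0.77 without aged replicate 2 (limma adjusted p = 0.519 with all libraries). Cntnap1, the gene of Caspr, read 346, 446 and 279 in the young libraries, against 719 and 671 in the aged ones. The aged libraries stood close together above the young range, with a log2 fold change of 0.98 ± 0.34 (SE, limma adjusted p = 0.533).

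On the lower side, Nlgn1, the neuroligin of excitatory synapses, read 2867, 3292 and 3169.9 in the young libraries, against 2333 and 1815 in the aged ones. Both aged libraries were below all young ones (log2 fold change −0.59 ± 0.26 (SE), limma adjusted p = 0.614). Lrrtm2, an excitatory ligand of neurexins, read 730.1, 665 and 721 in the young libraries, against 400.3 and 494 in the aged ones. Here the young values were nearly equal and the aged ones lower, with a log2 fold change of −0.66 ± 0.30 (SE, limma adjusted p = 0.627). Nrxn3 read 5181, 4471 and 5571 in the young libraries, against 6054 and 3226 in the aged ones, which were its highest and lowest values. Its log2 fold change of −0.19 turned to 0.26 without aged replicate 3. Nlgn3 (988 to 1211 young, 1145 and 1192 aged) and Lrrtm1 (3199 to 5153 young, 2999 and 3644 aged) overlapped between the ages, with log2 fold changes of 0.14 and −0.32.

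Groups that do not overlap were common over all tested genes: 12.2% were higher and 12.5% lower in both aged libraries, beside 4 and 2 of the 9. Before adjustment, 4 of the 9 were higher at a limma p of up to 0.05, against 2.9% of all tested genes, and 2 were lower, against 5.04%. With 3 libraries against 2, the exact two-sided permutation test has 10 splits and cannot give a p below 0.1, which is the value of each of the 6 genes without overlap. The p-values measure the spread between libraries. The labels do not say whether each library is a separate animal, while for aging the unit in the paper's caption is the mouse. Ribosomal RNA (Rn45s) read 323736, 340113 and 221109 in the young libraries, against 552135 and 518246 in the aged ones, which were both higher (log2 fold change 0.88, limma adjusted p = 0.756), and its part in these differences was not tested.

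The promoter sequences of the genes that differed in opposite directions with age are shown for what their letters hold. RefSeq promoter windows of 300 bases (build GRCm38.p6) were matched for 5 of the 9 genes, with 8 windows in all: 1 each for Igsf8, Nlgn2 and Lrrtm1, 2 for Nlgn1 and 3 for Nrxn3. Nrxn2, Nlgn3, Lrrtm2 and Cntnap1 had none. The windows of Igsf8 and Nlgn2, the 2 genes that DESeq2 called higher with age, are printed beside the first window of Nlgn1, which was lower in both aged libraries, and a window within Nrxn3, which was called in the knockdown experiment. Each is 5′ to 3′ on the strand of its gene, and capitals mark GGGCGG on either strand.

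Igsf8 chr1:172312117-172312416 (+): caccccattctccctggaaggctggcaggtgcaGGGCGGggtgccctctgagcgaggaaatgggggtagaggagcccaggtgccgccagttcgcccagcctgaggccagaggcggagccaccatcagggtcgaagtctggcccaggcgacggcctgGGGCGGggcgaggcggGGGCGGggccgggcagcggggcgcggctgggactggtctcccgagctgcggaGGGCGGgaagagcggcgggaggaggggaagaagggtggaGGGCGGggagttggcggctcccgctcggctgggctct
Nlgn2 chr11:69837735-69838034 (-): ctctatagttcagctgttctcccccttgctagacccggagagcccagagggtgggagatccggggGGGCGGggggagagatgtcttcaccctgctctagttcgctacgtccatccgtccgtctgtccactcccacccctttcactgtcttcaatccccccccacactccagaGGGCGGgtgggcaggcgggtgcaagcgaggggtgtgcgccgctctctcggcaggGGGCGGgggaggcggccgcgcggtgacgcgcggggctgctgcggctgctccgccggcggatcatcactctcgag
Nlgn1 chr3:26331860-26332159 (-): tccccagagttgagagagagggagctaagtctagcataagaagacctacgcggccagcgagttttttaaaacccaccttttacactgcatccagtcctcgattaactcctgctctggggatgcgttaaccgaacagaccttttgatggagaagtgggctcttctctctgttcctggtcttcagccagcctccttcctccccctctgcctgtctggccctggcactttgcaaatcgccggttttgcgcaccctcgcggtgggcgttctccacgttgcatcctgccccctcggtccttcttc
Nrxn3 chr12:89812233-89812532 (+): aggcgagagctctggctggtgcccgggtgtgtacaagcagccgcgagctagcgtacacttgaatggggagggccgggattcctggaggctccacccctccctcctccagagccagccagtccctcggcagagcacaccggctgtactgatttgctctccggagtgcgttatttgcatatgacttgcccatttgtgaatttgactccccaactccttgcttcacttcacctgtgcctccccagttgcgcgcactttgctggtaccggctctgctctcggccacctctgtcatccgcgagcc

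GGGCGG, the core of the GC box, lay in 35.7% of all 32851 promoter windows. The Igsf8 window held 5 matches with a GC content of 74.3%, and the Nlgn2 window 3 with 68.7%. The printed Nlgn1 window held 0 matches at 55.7% GC, and its other window 0 at 44.7%. The Lrrtm1 window held 1 match at 40.7% GC, the lowest GC content of the 8 windows. The printed Nrxn3 window also held 0, at 60.7% GC, where the median of all windows was 52.7%, and its other 2 windows held 1 at 47.7% GC and 0 at 47.3%. Also searched on both strands were the cyclic AMP response element TGACGTCA (in 1.79% of all windows) and TGACNNNGC, a core of the antioxidant response element (in 12.4%), which share their first 4 letters. Neither lay in a printed window, and the Nrxn3 window at 47.3% GC held 1 match to the antioxidant response core. A match describes the letters in these windows only.

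GC content also ran with the differences over all genes. The longest coding transcripts of Nrxn2, Nlgn2, Igsf8, Cntnap1 and Lrrtm1 lay in the quintile of tested genes with the most GC, and those of Nlgn1 and Lrrtm2 in the quintile with the least. Over all genes with an annotated transcript (91.9% of those tested), the median log2 fold change with age was −0.28 in the quintile with the least GC, −0.12, −0.01 and 0.08 in the next 3 and 0.25 in the quintile with the most. The 4 genes that were higher with age lay above the median of their quintile, Nlgn1 and Lrrtm2 lay below that of theirs, and Lrrtm1, rich in GC, lay at −0.32. The part of GC content in the differences was not tested.

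**Figure D2:**
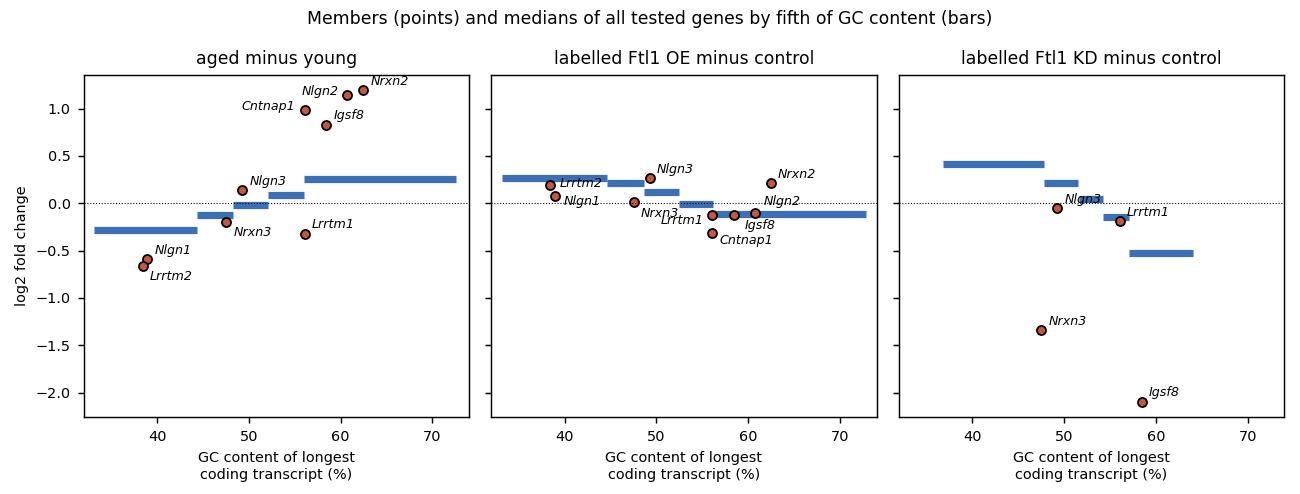
Log2 fold changes of the tested genes of the 9 (red points) against the GC content of their longest coding transcript in percent, with the median of all tested genes in each GC quintile as a blue bar, for the 3 comparisons. The medians run upward with GC in aging, from −0.28 to 0.25, and downward in the other 2 comparisons.

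Of 87 further genes of synaptic adhesion in 8 lists, 85 were tested with age and 0 were called by limma, with 3 higher and 5 lower at a p of up to 0.05 before adjustment and a median log2 fold change of 0.10, beside −0.03 over all genes. The medians were 0.19 for 4 genes on the neurexin side of the synapse, 0.28 for 8 secreted bridging proteins, 0.12 for 11 other neurexin ligands and neuroligin regulators and −0.01 for 13 ligands of LAR-type phosphatases. They were 0.30 for 21 genes of the netrin-G, SALM, latrophilin, FLRT, teneurin and SynCAM groups, −0.35 for 14 contactin and node genes, 0.29 for 5 EWI and tetraspanin genes and −0.14 for 9 intracellular partners. Clstn1, the calsyntenin gene, read 4906, 5607.5 and 5944 in the young libraries, against 7724 and 10174 in the aged ones. Adgrl2, a latrophilin gene, read 1121, 1019.9 and 1509 in the young libraries, against 685 and 197 in the aged ones. The aged libraries lay above all young ones for Clstn1 (log2 fold change 0.70, limma adjusted p = 0.589) and below them for Adgrl2 (−1.71, limma adjusted p = 0.441). C1ql2, a secreted ligand, had a log2 fold change of 0.82 (limma adjusted p = 0.610) with overlapping groups, and Lin7c, a scaffold gene, one of −1.39 (limma adjusted p = 0.461) without overlap.

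The overexpression experiment asks what a virus for Ftl1 does to neurons of young mice. In its 12 libraries, all 9 genes were tested, their groups overlapped, and 0 of the 9 were called by limma, which called 0 of 14099 genes (0%). Before adjustment, at a p of up to 0.05, 0 of the 9 passed, where 7.26% of all genes did. DESeq2 called 0 of the 9 and 91 genes in all (1.35% of the 6718 with an adjusted p, which excluded Nrxn2, Nlgn2 and Lrrtm2), and edgeR called 0 of the 9 and 0 of all. Control replicate 3 had the lowest mean correlation with the other libraries of its experiment (0.771), and without it limma again called 0 of the 9.

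**Figure D3:**
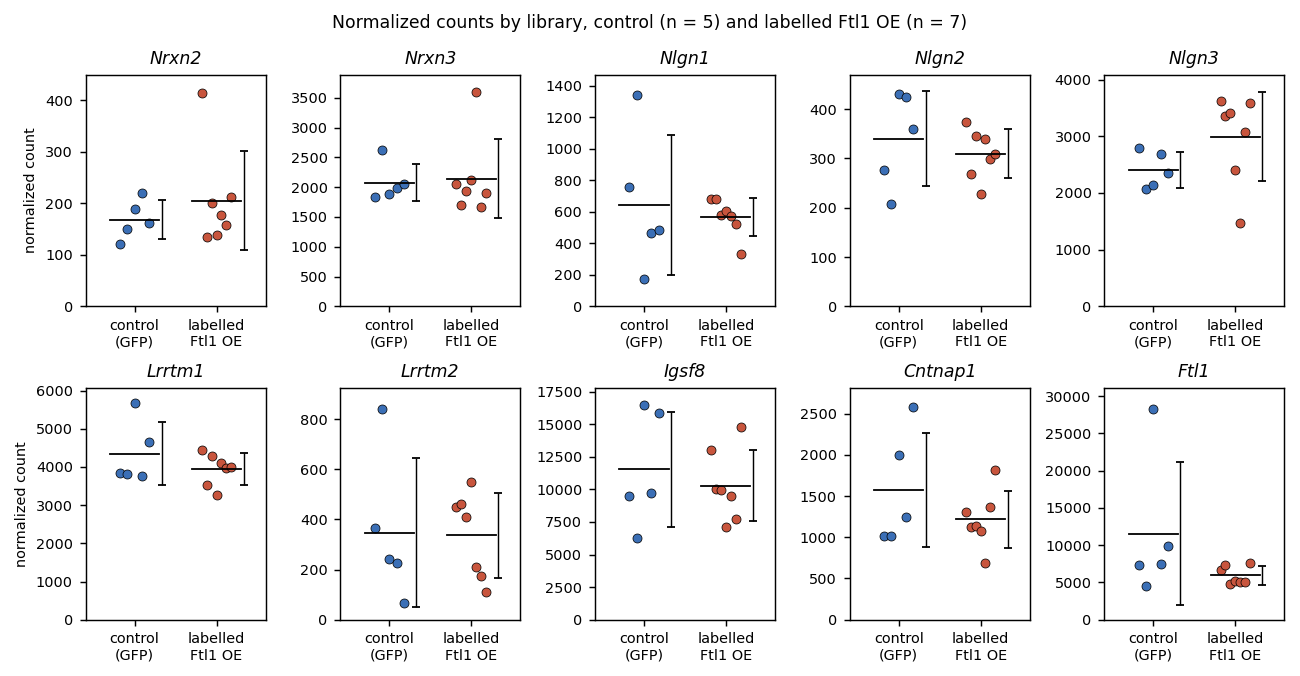
Normalized counts of the 9 genes and of Ftl1 in each control (GFP, blue, n = 5) and labelled Ftl1 OE library (red, n = 7), with the mean as a line and 1 SD as a bar. The groups overlap for every gene shown, and control replicate 3 stands far above the other libraries for Ftl1 at 28309.5.

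Log2 fold changes (labelled OE minus control) ran from −0.32 for Cntnap1 to 0.27 for Nlgn3. Nlgn3, which serves excitatory and inhibitory synapses, read 2786, 2070.1, 2143, 2686 and 2349 in control replicates 1 to 5 and 1473 to 3629 with a median of 3356 in the libraries labelled OE. The labelled OE median lay above every control, but the lowest labelled OE library lay under all of them (limma adjusted p = 0.760, 95% interval of the log2 fold change −0.20 to 0.74). Cntnap1 read 1017, 1022, 1997, 1245 and 2585 in the controls and 689 to 1821 with a median of 1137 in the libraries labelled OE. Control replicates 3 and 5 were the highest and the remaining controls lay within the labelled OE range (log2 fold change −0.32, limma adjusted p = 0.770).

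For Nlgn1 the controls spread from 174 to 1344, wider than the labelled OE libraries at 329.9 to 684, and the log2 fold change of 0.08 turned to −0.32 without control replicate 3. That library held the lowest Nlgn1 value and the highest Igsf8 value, 16443. Igsf8, at −0.12 with all libraries, came to 0.03 without it and 0.02 without control replicate 5. Lrrtm2 spread from 66.1 to 842 in the controls and from 112 to 548 in the libraries labelled OE, and its 0.20 turned to −0.29 without control replicate 5. Nrxn2 (0.21), Nrxn3 (0.01), Nlgn2 (−0.10) and Lrrtm1 (−0.13) had 95% intervals that held 0, as had all 9. The direction of Nlgn1 and Lrrtm2 also turned with edgeR and DESeq2, and that of Nlgn1 and Nrxn3 with median centring.

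Across these 12 libraries, with log2 values centred on their group means, the 9 genes did not vary as one block. Igsf8 varied with Lrrtm1 (Pearson r = 0.737), Cntnap1 (0.724) and Nlgn2 (0.717) and against Nlgn1 (−0.725), while Nlgn1 varied with Lrrtm2 (0.578). Without each library in turn, an alternative chosen after seeing the data, these 5 values kept their signs. That of Nlgn1 and Lrrtm2 ran from 0.339 without control replicate 2 to 0.854 without control replicate 3. The pair furthest apart over all libraries was Nrxn3 and Nlgn3 (−0.850), but it came to −0.433 without labelled OE replicate 5, which held the highest Nrxn3 and the lowest Nlgn3 value, and was then no longer the furthest apart. Igsf8 and Nlgn2 are richer in GC than Nlgn1 and Lrrtm2. Over all tested genes the median log2 fold change (labelled OE minus control) was 0.26 in the quintile with the least GC and −0.11 in the quintile with the most. Differences between the groups, such as these, were removed from the r values by the centring. Of 83 partner genes, those most like the mean of the 9 were Lrfn2 (Pearson r = 0.719), Tenm2 (0.529) and Adgrl3 (0.528). These values over 12 libraries are descriptions. All genes of a library share its depth, base composition and hippocampal make-up, which differ between libraries and whose part was not tested.

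Of the 83 partner genes tested, limma called 0, with 4 higher and 1 lower at a p of up to 0.05 before adjustment and a median of 0.15, beside 0.10 over all genes. The list medians were 0.07 for the neurexin side (4 tested), 0.13 for secreted bridges (7), 0.09 for other ligands and regulators (11), 0.29 for ligands of LAR-type phosphatases (12) and 0.15 for the netrin-G to SynCAM groups (21). They were 0.44 for contactin and node genes (14), 0.09 for EWI and tetraspanin genes (5) and −0.17 for intracellular partners (9). Cntn6, a contactin gene, read 26.8, 24.6, 1.35, 19.8 and 0 in control replicates 1 to 5 and 21.5 to 149 with a median of 84.2 in the libraries labelled OE. Most labelled OE libraries lay above the controls, with an overlap at the low end (log2 fold change 2.87 ± 0.98 (SE), limma adjusted p = 0.546). Cntn2, another contactin gene, had a log2 fold change of 0.82 (limma adjusted p = 0.619), Cntnap2, a relative of Cntnap1, −0.60 (limma adjusted p = 0.574), and Gphn, which encodes the inhibitory scaffold gephyrin, −0.44 (limma adjusted p = 0.695). Among the other cell types, 4 of 10 microglial markers had a limma p of up to 0.05 on the lower side before adjustment, and 0 were called. Over all 14099 genes, 516 had such a p on the lower side. Their sum was 3147 to 7134 in the controls and 1959 to 3293 in the libraries labelled OE, with C1qb the most abundant. Their part was not tested.

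The knockdown experiment asks what a hairpin against Ftl1 does to neurons of aged mice. Igsf8 and Nrxn3 were lower in all 4 libraries labelled Ftl1 KD than in any of the 4 controls and were called lower, where Ftl1 itself was higher. Only Nrxn3, Igsf8, Nlgn3 and Lrrtm1 reached a mean normalized count of 10, the limit for testing, and the other 5 did not. The 2 called are read beside a background of 24.2% of the 1460 tested genes called in either direction, 13.7% called lower and 11.9% with every control above every library labelled KD. A gene that reaches the limit through its controls alone is favoured to be lower. Igsf8 and Nrxn3 reached it in both groups, with labelled KD means of 10.03 and 15.8, so Igsf8 only just did. The count of those called is a description only.

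**Figure D4:**
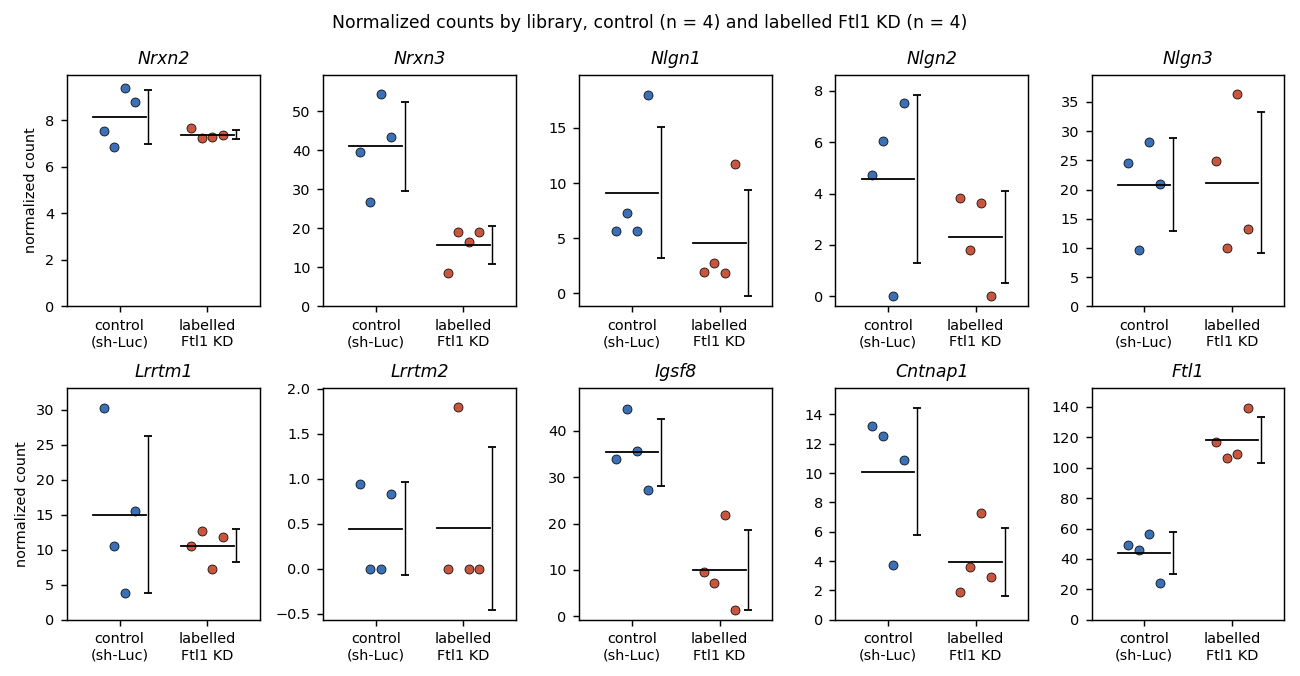
Normalized counts of the 9 genes and of Ftl1 in each control (sh-Luc, blue, n = 4) and labelled Ftl1 KD library (red, n = 4), with the mean as a line and 1 SD as a bar. For Nrxn3 and Igsf8 all labelled KD libraries lie below all controls, and for Ftl1 above them.

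Igsf8 read 34.0, 44.8, 35.6 and 27.2 in control replicates 1, 2, 3 and 5, which rest on 36, 111, 19 and 65 reads. It read 9.59, 7.22, 21.9 and 1.47 in labelled KD replicates 1, 3, 4 and 5, on 10, 8, 12 and 1 reads. Each library labelled KD lay below every control, with replicate 4 nearest to them and replicate 5 at a single read. The control mean of 35.4 ± 7.25 (SD, n = 4) was 3.53 times the labelled KD mean of 10.03 ± 8.59 (SD, n = 4). Igsf8 fell by 2.10 ± 0.44 (SE) on the log2 scale (limma adjusted p = 0.00122), and the exact two-sided permutation test gave 0.0286, the smallest p that its 70 splits allow.

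Nrxn3 read 39.6, 26.6, 54.3 and 43.5 in the controls, on 42, 66, 29 and 104 reads. It read 8.63, 18.9, 16.4 and 19.1 in the libraries labelled KD, on 9, 21, 9 and 13 reads. All libraries labelled KD were below all controls, with control replicate 2 the lowest of its group. The control mean of 41.0 ± 11.4 (SD, n = 4) was 2.60 times the labelled KD mean of 15.8 ± 4.92 (SD, n = 4). Nrxn3 fell by 1.34 ± 0.31 (SE) on the log2 scale (limma adjusted p = 0.00278, exact two-sided permutation p = 0.0286). Both calls held with edgeR and DESeq2 and without any single library, where the log2 fold change ran from −2.58 to −1.51 for Igsf8 and from −1.53 to −1.09 for Nrxn3. In bulk libraries, fewer cells of a type and less RNA per cell cannot be told apart.

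Nlgn3 (9.68 to 28.1 in the controls, 9.92 to 36.4 in the libraries labelled KD) and Lrrtm1 (3.74 to 30.2 and 7.29 to 12.6) overlapped and were not called, with log2 fold changes of −0.05 and −0.19 whose 95% intervals reached from −0.82 to 0.72 and from −1.14 to 0.77. Below the limit for testing, a fit of all genes with a read gave −1.04 for Nlgn1 (limma adjusted p = 0.376), −1.16 for Cntnap1 (limma adjusted p = 0.280), −0.61 for Nlgn2 and −0.12 for Nrxn2. Nlgn1 rested on 70 reads in the 4 controls and 14 in the 4 libraries labelled KD, and Cntnap1 on 73 and 12. Nlgn2 rested on 38 and 8 reads, with 1 library at 0 in each group, and Nrxn2 on 51 and 25. Lrrtm2 had 3 reads over all controls and 2 over all libraries labelled KD, with each library below the floor of 3 reads. For it no fold is given, and a difference was not detectable at this depth. The intervals rest on the spread between libraries, and floors cover counting error only.

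**Figure D5:**
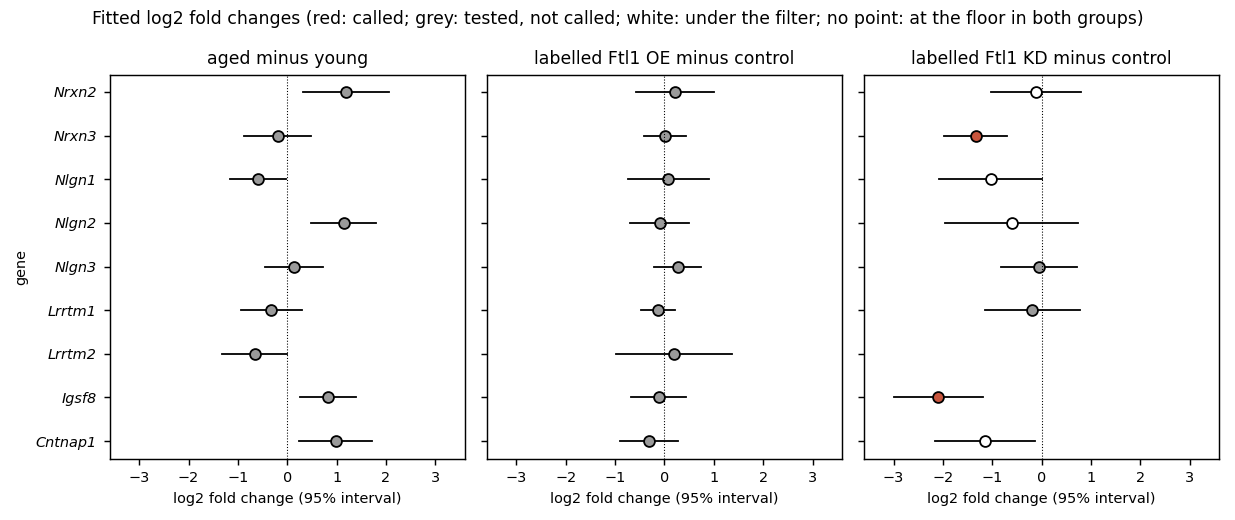
Fitted log2 fold changes of the 9 genes with 95% intervals in the 3 comparisons: red, called; grey, tested and not called; white, below the limit for testing. In the knockdown panel, Nrxn3 at −1.34 and Igsf8 at −2.10 are called, and Lrrtm2, below the floor in every library, has no point.

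Other RNAs moved with these 2 genes. All 5 tested of 7 nuclear-retained RNAs, led by Malat1, were called lower. Their sum was 1016, 629, 712 and 1263 in control replicates 1, 2, 3 and 5 and 327, 239, 222 and 229 in labelled KD replicates 1, 3, 4 and 5. Both tested of 9 oligodendrocyte markers were also called lower, with sums of 63.2, 97.2, 74.9 and 39.7 in the controls, against 19.2, 24.4, 10.9 and 13.2 in the libraries labelled KD, Mbp the most abundant and Ermn at 0 throughout. Every library labelled KD was below every control in both sums, also as a share of the library. Both oligodendrocyte markers and 2 of the 5 nuclear-retained RNAs reached the limit for testing through the controls alone, which favours a call on the lower side. Tubb3, the most abundant of 5 newborn-neuron markers and the only one tested, was called higher (log2 fold change 1.34), as was Gad1 among 8 interneuron markers (1.49, with 1 of 3 tested called higher) and 1 of 3 tested astrocyte markers (2.05), which reached the limit through the libraries labelled KD alone. Tubb3 alone made up most of each newborn-neuron sum, at 31.9 to 67.4 in the controls and 102.0 to 130.8 in the libraries labelled KD. The newborn-neuron sums were 37.5 to 76.8 in the controls and 107.5 to 139.6 in the libraries labelled KD, without overlap. Sums of oligodendrocyte precursor markers were 2.09 to 16.9 and 17.3 to 29.1, also without overlap. Olig1, the 1 tested of these 5, was not called (1.40, limma adjusted p = 0.0524). The interneuron sums overlapped, at 39.3 to 77.4 in the controls and 71.9 to 94.7 in the libraries labelled KD. They did not overlap as a share of the library (0.0304% to 0.0535% and 0.0772% to 0.106%). Of 7 neuronal markers, 4 were tested, with 1 called higher and 1 lower. Slc17a7, a marker of excitatory cells named after its values were seen, was called lower (−1.35). Its means were 26.8 in the controls and 12.7 in the libraries labelled KD. Gad1, also in this list, was the 1 called higher, and Snap25 and Syt1 were not called. Markers of single hippocampal regions were mixed. C1ql2, the 1 tested of 5 dentate granule markers (−1.49), and Fibcd1 (−1.47, adjusted p = 0.0028) were called lower, but the other 2 tested CA1 markers were not called, and 1 of them stood at 0.74. Of 2 tested CA3 markers, Chgb, the most abundant, was not called (−0.25, adjusted p = 0.598), and the other was called lower (−1.59) but reached the limit through the controls alone. The dentate sums were 33.7 to 86.3 in the controls and 11.8 to 25.9 in the libraries labelled KD, and the CA3 sums 53.9 to 90.6 and 38.2 to 41.5, both without overlap. As a share of the library both overlapped (0.0264% to 0.0597% and 0.0134% to 0.0278%, and 0.0405% to 0.0928% and 0.0434% to 0.0475%), and the CA1 sums overlapped on either scale. Ribosomal RNA (Rn45s) was called lower (−1.005, limma adjusted p = 0.0091). It made up 31.9% to 55.3% of the control libraries and 30.3% to 34.5% of those labelled KD. Control replicate 1, at 31084, lay within the labelled KD range of 26549 to 32114. Libraries labelled KD held 48902 to 97104 reads and controls 68092 to 358560. The part of these features in the lower Igsf8 and Nrxn3 was not tested. GC content ran with the differences: over all tested genes, median log2 fold changes fell from 0.42 in the quintile with the least GC, which holds Nrxn3, through 0.21, 0.04 and −0.14 to −0.53 in the quintile with the most, which holds Igsf8. By genomic span, the median was −0.44 in the quintile of the longest genes, which holds Nrxn3.

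Over all 1460 genes, 154 were called higher and 200 lower. Centring each library on its median log2 value turned this to 197 higher and 161 lower and moved the median over all genes from −0.01 to 0.10 on the log2 scale. After this centring, the log2 fold change was −1.99 for Igsf8 and −1.23 for Nrxn3, and both were called.

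Of the 87 partner genes, 16 were tested, with 1 called higher and 5 lower and a median of −0.73, beside −0.01 over all genes. Adgrl1, the latrophilin 1 gene, read 19.8, 31.9, 28.1 and 35.1 in the controls, against 5.75, 3.61, 9.11 and 5.88 in the libraries labelled KD. Clstn1 read 64.2, 65.3, 50.6 and 76.1 in the controls, against 24.0, 29.8, 25.5 and 22.0 in the libraries labelled KD. Both sets of labelled KD values lay well below the controls (log2 fold changes −2.09 and −1.299, limma adjusted p = 2.53e-04 and 5.41e-04). C1ql2 (log2 fold change −1.49), Tenm2, a teneurin gene (−1.31), and Ptprs, a LAR-type phosphatase gene that acts presynaptically (−0.80), were also called lower, and their groups did not overlap. Cntn1, a contactin gene, read 9.44, 12.5, 3.74 and 7.52 in the controls, against 26.8, 16.2, 16.4 and 29.4 in the libraries labelled KD. It was the 1 partner called higher, with all libraries labelled KD above all controls (log2 fold change 1.37, limma adjusted p = 0.0110). Adgrl1 reached the limit for testing through its controls alone and Cntn1 through the libraries labelled KD alone, which favours a call in that direction, so the partner counts are a description only. By list, 1 of 2 tested genes was called lower on the neurexin side, 1 of 1 among secreted bridges, 1 of 3 among other ligands and regulators and 2 of 4 in the netrin-G to SynCAM groups, and 1 of 4 contactin and node genes was called higher. The 1 tested ligand of LAR-type phosphatases and the 1 tested EWI or tetraspanin gene were not called, and 0 of 9 intracellular partners were tested.

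Set side by side, the log2 fold changes of Igsf8 were 0.83 with age, −0.12 in the libraries labelled OE and −2.10 in those labelled KD, and those of Nrxn3 −0.19, 0.01 and −1.34. Nlgn2 and Cntnap1 stood at 1.14 and 0.98 with age and at −0.10 and −0.32 in the libraries labelled OE. The difference between comparisons was not tested.

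Levels of different genes can be compared only per length. In young wild-type libraries (n = 3), Lrrtm1 had the highest normalized count per kilobase of its longest coding transcript, 1655 ± 385 (SD), followed by Igsf8 at 1139 ± 122 and Nrxn3 at 641 ± 70.4. The ranges of Lrrtm1 and Igsf8 just missed each other. Nlgn1 came next at 263 ± 18.5, above Nlgn3 at 125 ± 14.5, Lrrtm2 at 124 ± 6.26 and Nlgn2 at 106 ± 22.6, which did not differ beyond their spread. Cntnap1 (65.6 ± 15.5) and Nrxn2 (31.8 ± 3.34) were the lowest. In the aged libraries (n = 2), Igsf8 came first at 2020.4 ± 120.5, before Lrrtm1 at 1307 ± 180 and Nrxn3 at 586 ± 252, and Nlgn2 at 231 ± 26.8 preceded Nlgn1 at 176 ± 31.0 without overlap. Igsf8 had the highest mean in both groups of the overexpression experiment as well, at 4032 ± 1537 per kilobase in the controls (n = 5) and 3590.4 ± 954 in the libraries labelled OE (n = 7), with Lrrtm1 next at 1711 ± 325, in a range that just overlapped, and at 1553 ± 163, and Nrxn2 last at 25.3 ± 5.67 and 30.8 ± 14.5. Among the knockdown controls (n = 4), Igsf8 had the highest mean at 12.3 ± 2.53 per kilobase, but Lrrtm1 at 5.89 ± 4.42 overlapped both it and Nrxn3 at 5.18 ± 1.44. In the libraries labelled KD (n = 4), Lrrtm1 at 4.15 ± 0.92, Igsf8 at 3.501 ± 3.00, Nlgn3 at 2.47 ± 1.41 and Nrxn3 at 1.99 ± 0.62 overlapped one with the next. Per kilobase of merged exons, young Igsf8 came to 626 and young Nrxn3 to 403, both still behind Lrrtm1 at 1387, and in the aged libraries Igsf8 at 1109.95 lay beside Lrrtm1 at 1095.

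The 9 genes differ widely in their structure. In the GENCODE M21 annotation of the mm10 build, Nrxn3 (chr12:88722876-90334935) spans 1612 kilobases and Nlgn1 (chr3:25426215-26332460) 906, while Nlgn2 (chr11:69823122-69837784) spans 14.7 and Lrrtm2 6.02. Cntnap1 overlaps Plekhh3, on the opposite strand, by 233 exonic bases, and Lrrtm1 lies within Ctnna2 with 0 exonic bases shared. The strand used in counting is not stated, and the part of the overlap with Plekhh3 in the values of Cntnap1 was not tested.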

How the data were processed

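Neuronal nuclear RNA of 25 libraries was used. The authors used STAR (mm10 transcriptome), RSEM for counting and DESeq2 for normalization, and deposited 3 tables, one per experiment, with a normalized count (a signal) per gene and library. The authors' comparison columns in the deposited tables (mean, log2 fold change, standard error, test statistic, p-value and adjusted p-value) were not used. The labels describe polyA strand-specific libraries and the paper's methods a protocol based on Smart-seq2. Reads were recovered from the step between values, whole within 0.1 for 100% of genes.

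Groups were compared in R 4.3.3 with limma 3.58.1 (trend) on log2(normalized count + 1) for genes with a mean of at least 10, and p-values were adjusted over all tested genes by the Benjamini-Hochberg method. Single genes also had the exact two-sided permutation test. Calls needed an adjusted p of 0.05 or less. Alternatives were pseudocounts of 0.5 and 5, no filter and a mean of 100, TMM scaling, median centring, edgeR 4.0.16, DESeq2 1.42.0, a replicate block, merged exons as length and leaving out each library. The models were tested on simulated data. Plots used Python 3.11.15 and matplotlib 3.10.9.

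The 9 genes and the lists were chosen with earlier results of these data known. Named were the 9, Ftl1, partner genes that were called (where none was, the 2 with the smallest p in each direction), the 3 partner genes most like the mean of the 9 and the most abundant gene of a marker list. Not every overlap of the 9 with other genes is reported here.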

Additional observations from a re-analysis of the deposited data

Results flagged for a closer look

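In 40 groups of values of the overexpression and knockdown experiments, 7 single libraries stood far from the others of their group. The aging groups were not screened in this way. A chance rate of about 1 in 20 groups is nominal and was not measured on these values. Nrxn3 read 2617 in control (GFP) replicate 2, against 1842 to 2057 in the other controls. Ftl1 read 28309.5 in control (GFP) replicate 3, against 4580.4 to 9953. Nrxn2 read 414 in labelled OE replicate 1, against 135 to 213, and Nrxn3 read 3598 in labelled OE replicate 5, against 1664 to 2127. Nlgn1 read 18.0 in control (sh-Luc) replicate 5, against 5.62 to 7.26, and 11.8 in labelled KD replicate 5, against 1.82 to 2.71. Lrrtm2 read 1.80 in labelled KD replicate 3, where the other 3 libraries were at 0. That value rests on 2 reads, below the floor of 3 reads, and beside values of 0 any read would be flagged.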

How the results depend on the processing

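With age, limma called 0 of the 9 genes under every alternative run with it, also with a replicate block. The block's folds rest only on replicate numbers found in both groups, so young replicate 1 did not enter them. The edgeR test called 0 and DESeq2 called 2 (138 of all genes), and the cause was not tested. Of the values under alternatives, 123 kept direction and side of the threshold, 1 turned and 2 passed. Without each library in turn, Nrxn3 ran from −0.65 to 0.26.

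In the libraries labelled OE, 0 of the 9 were called under every alternative, beside 91 of all genes with DESeq2 and 1 without control replicate 4. Median centring turned Nrxn3 to −0.084 and Nlgn1 to −0.016, edgeR Nlgn1 to −0.16 and Lrrtm2 to −0.016, and DESeq2 Nlgn1 to −0.18 and Lrrtm2 to −0.043; the cause was not tested. Without each library in turn, Nrxn3 ran from −0.12 to 0.098, Nlgn1 from −0.32 to 0.42, Lrrtm2 from −0.29 to 0.62 and Igsf8 from −0.32 to 0.030. In an alternative chosen after seeing the data, the Pearson r of Nrxn3 and Nlgn3 ran from −0.890 to −0.433 without each library in turn.

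In the libraries labelled KD, Igsf8 and Nrxn3 were called under every alternative that tested them. At a mean of at least 100, none of the 9 was tested, so 0 were called, beside 18 of all genes. With the replicate block, Nrxn3 stood at −1.57 (limma adjusted p = 0.0140) and Igsf8 at −2.46 (limma adjusted p = 0.00547), and 173 genes were called in all. The block's folds rest only on replicate numbers found in both groups. Control replicate 2 and labelled KD replicate 4, the latter nearest to the controls for Igsf8, did not enter them. Over all alternatives, the adjusted p was at most 0.0164 for Nrxn3 and 0.0134 for Igsf8. Libraries with the same number in their titles were no more alike than others (r of −0.0336, −0.0196 and −0.0524), so the pairs were not used. Nlgn3 turned to 0.058 with median centring, 0.083 with edgeR and 0.051 with DESeq2, stood at −0.67 with the replicate block and ran from −0.36 to 0.23 without each library in turn, and Lrrtm1 from −0.67 to 0.24; the cause was not tested.

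Depth limits the knockdown libraries most, where 5 of the 9 genes could not be tested. In aging, 2 aged libraries limit every test, and leaving one out rests on the assumption that the lone library varies like the young ones. With merged exons as length, levels of Igsf8, Nrxn2 and Nrxn3 moved by more than their spread in the young, control (GFP) and control (sh-Luc) libraries, Igsf8 from 1139 to 626 in the young ones, where Lrrtm2 then stood above Nlgn3.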
